A study of Homo sapiens with 8 samples.

Results

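The transcripts of 10 genes whose proteins restrain the kinase mTOR or the translation that it drives were followed in human lung cells exposed to urban air pollutants. The genes are the 3 sestrins SESN1, SESN2 and SESN3, the mTOR-binding inhibitors DEPTOR and AKT1S1, the tuberous sclerosis genes TSC1 and TSC2, the stress gene DDIT4, the PI3K inhibitor PIK3IP1 and the translation inhibitor PDCD4. They were chosen by name, with earlier results of these data known, out of 18377 genes read from a probe set carrying a single symbol. Each of the 10 had 1 such probe set. The cells were A549, an epithelial line from a human lung adenocarcinoma, taken without medium at the air-liquid interface and exposed for 4 hr, with RNA collected 9 hr later. The 8 arrays held 4 groups of 2. The PCA group was exposed to the photochemically altered mixture, which the array labels call aged urban mix and which sunlight had acted on through the day in an outdoor chamber. It was set against the evening control, cells in incubator air over the same hours. The primary group was exposed in the morning to the primary pollutants, called fresh urban mix in the labels, and was set against the morning control. Both mixtures began from the same hydrocarbons and nitrogen oxides. The exposed groups differ in mixture and in time of day but not in cell line, genotype or length of exposure. Exposed cells were in an exposure chamber through which the mixture was drawn, while controls were in incubator air. Against a control, the effect of chamber and air flow thus cannot be told apart from that of the mixture. Each mixture was given in 1 exposure period. The p-values below thus rest on the spread between cultures within groups, pooled over both periods, and not on the spread between repeated exposures.

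mTOR is a kinase that joins growth factor, energy and amino acid signals to protein synthesis, growth and the block of autophagy. It works in 2 complexes, mTORC1 and mTORC2, and cells hold a set of proteins that keep it in check: sestrins hold back the lysosomal arm when leucine is short or the cell is stressed, the TSC complex turns off the GTPase RHEB that activates mTORC1, and DEPTOR and AKT1S1 (also called PRAS40) bind the complexes themselves. PDCD4 lies downstream, where it binds the RNA helicase eIF4A and slows translation initiation until S6 kinase marks it for destruction. Several of these genes are known to be induced by stress, starvation or loss of growth factor signalling, through p53, FOXO factors or ATF4. The arrays measure mRNA only, and neither the proteins nor the kinase activity was measured in these files.

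All 9 epithelial and A549 markers that could be read had signals between 452 and 17300 on every array, on the linear scale. The 1 of them that changed was CDH1, the adhesion protein E-cadherin, which fell by 1.11 on the log2 scale with PCA pollutants (SE 0.072, limma adjusted p = 0.000665), and its part in the results below was not tested. The alveolar type II markers read had signals between 35.5 and 218, and those of endothelium between 37.8 and 70.8. Signals of different probe sets are not comparable as levels. Among fibroblast markers the range was 14.6 to 347, and among leucocyte markers 16.9 to 924, where CD68 was the 1 of 5 to reach 250 on every array. ACTB, a common reference gene, differed by -0.03 on the log2 scale with PCA pollutants (SE 0.0918) and by -0.14 with primary pollutants (SE 0.0917), and neither difference passed the test. The array medians lay between 6.934 and 7.028 on the log2 scale. The 2 primary arrays had a correlation across probe sets of 0.9939 with each other, below the best value of each with an array of another group, 0.9948 and 0.9956. The same was true by a smaller margin of the evening control arrays, at 0.9963 with each other and at best 0.9965 and 0.9964 with an array of another group. The primary responses are given below without each primary array where the value moves.

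The promoters of SESN3 and PDCD4 are shown because these members had the largest decreases and, of the members that changed, the most alike profiles over the 4 groups, and that of DDIT4 because its responses to the mixtures had opposite signs. Each is the 250 bases before the gene's start in RefSeq on GRCh38.p14, read 5′ to 3′ along the gene, with the letters of CCAAT or of its reverse complement in capitals. SESN3 lies at chr11:95232476-95232725 on the minus strand, DDIT4 at chr10:72273674-72273923 on the plus strand and PDCD4 at chr10:110871678-110871927 on the plus strand.
SESN3: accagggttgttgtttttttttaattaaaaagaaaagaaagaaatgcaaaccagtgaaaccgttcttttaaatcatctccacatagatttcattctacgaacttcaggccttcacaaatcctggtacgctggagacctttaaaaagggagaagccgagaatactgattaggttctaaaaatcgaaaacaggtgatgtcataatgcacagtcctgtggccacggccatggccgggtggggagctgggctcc
PDCD4: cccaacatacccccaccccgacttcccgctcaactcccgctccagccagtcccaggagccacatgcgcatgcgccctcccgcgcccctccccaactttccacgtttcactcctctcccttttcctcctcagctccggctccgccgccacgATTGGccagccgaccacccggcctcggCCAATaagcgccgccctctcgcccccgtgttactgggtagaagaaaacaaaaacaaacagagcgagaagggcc
DDIT4: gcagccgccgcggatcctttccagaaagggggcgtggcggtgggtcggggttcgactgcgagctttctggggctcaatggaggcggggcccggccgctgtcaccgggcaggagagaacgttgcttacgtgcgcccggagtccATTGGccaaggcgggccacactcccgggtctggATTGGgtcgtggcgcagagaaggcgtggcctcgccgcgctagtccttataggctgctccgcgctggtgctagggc
The SESN3 promoter was 42.8% G and C, against 64.4% for PDCD4 and 68.8% for DDIT4. CCAAT, the core that nuclear factor Y binds, was found 2 times in PDCD4 and 2 times in DDIT4, on either strand, and not in SESN3. It occurred in 3 of the 8 members with a RefSeq promoter, the third being SESN2, and in 33% of 27305 promoters of the same length. The FOXO sequence GTAAACA and the cyclic AMP element TGACGTCA were in none of the 8, against 2.98% and 1.77% of all promoters. The E-box CACGTG and the ATF4 composite element TGATGCAA were found in TSC2 alone, in letters that overlap each other, and in 6.49% and 0.82% of all promoters. A match is a run of letters and not a measured binding site, and the lack of one concerns only these letters in this window.

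With PCA pollutants, SESN3, PDCD4 and DEPTOR fell, and none of the 10 members rose. SESN3 was 2.96-fold lower, PDCD4 2.83-fold lower and DEPTOR 2.18-fold lower in PCA cells than in evening control cells. A gene counted as changed where the Benjamini-Hochberg adjusted p from limma, over all probe sets tested, was under 0.05 and the difference at least 1.5-fold. The 3 changed members of 10 stand beside 3.53% of all genes tested that changed in either direction and 2.66% that fell, 464 of 17470, while 0.876% rose. Because the members were chosen with earlier results known, these shares and those below describe the members and are not a test of them. On such bulk arrays a loss of some cells and less transcript per cell cannot be told apart. All 10 members had log2 fold changes below 0, beside 50.3% of all genes, and their median was -0.323, beside -0.002 over all genes. Under other scalings of the arrays SESN2, DDIT4, PIK3IP1 and AKT1S1 turned to small values above 0, of at most 0.0759. At an unadjusted p under 0.05 there were 6 of 10 members, beside 37% of all genes, all 6 of them lower, beside 22.5%. In 8 of the 10 both PCA arrays lay below both evening control arrays, where 68.3% of all genes had arrays that did not overlap in one direction or the other.

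**Figure D1:**
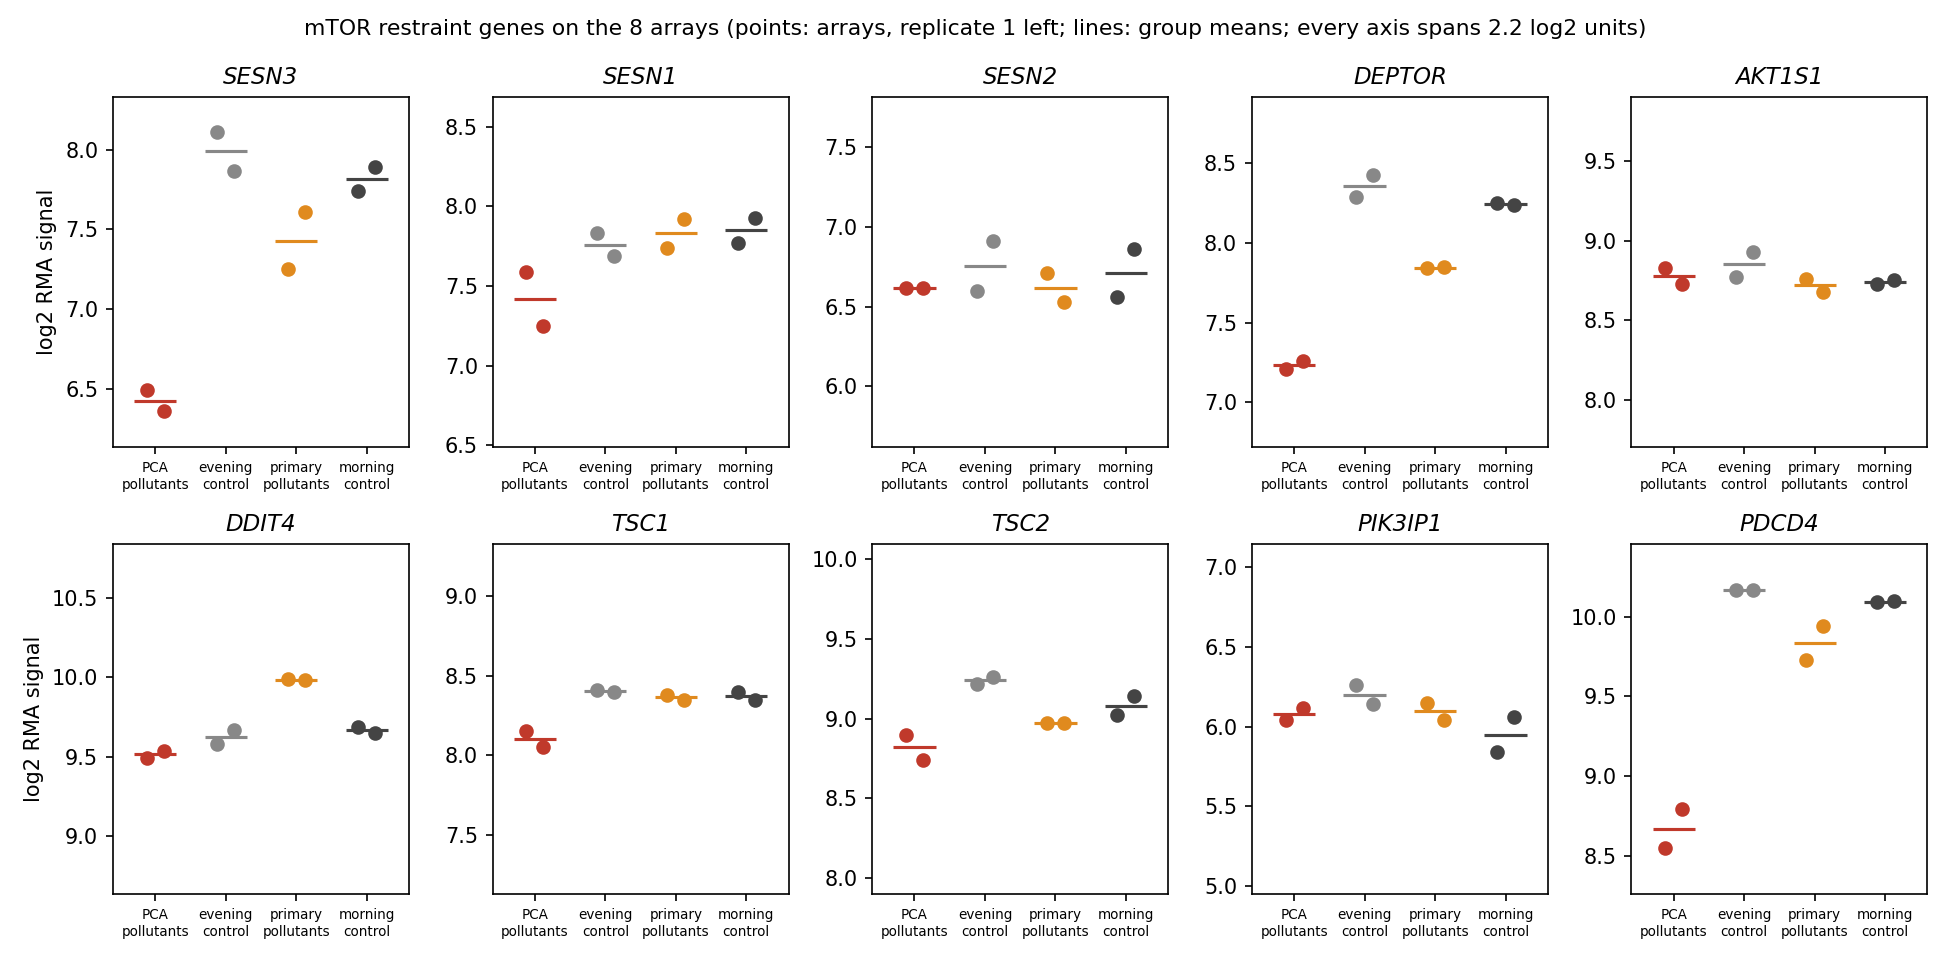
Signal of the 10 mTOR restraint genes on each array, on the log2 scale (vertical axis), in the 4 groups along the horizontal axis, each exposed group left of its control; points are arrays and bars are group means. SESN3, PDCD4 and DEPTOR lie far below both controls on the 2 PCA arrays, while SESN2, PIK3IP1 and AKT1S1 differ little between groups.

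Of the sestrins, only SESN3 passed the test. SESN3 had log2 signals of 6.49 and 6.36 in PCA cells, against 8.11 and 7.87 in evening control cells. The PCA cells thus held 33.7% of the control signal, and the gap between the groups was several times the spread within either. The log2 fold change was -1.57 (SE 0.138, 95% interval -1.889 to -1.246, limma adjusted p = 0.00118), the 4th lowest of 17470 genes. SESN1, a target of p53 and FOXO factors, had log2 signals of 7.59 and 7.25 in PCA cells and 7.83 and 7.69 in evening control cells. Its PCA arrays were both below its control arrays but lay further apart from each other than the control arrays did, and the difference of -0.34 (SE 0.13) did not pass the test (limma adjusted p = 0.0988). It was -0.513 without the first PCA array (adjusted p = 0.047, under the 1.5-fold limit) and -0.173 without the second (adjusted p = 0.396). SESN2, the sestrin that senses leucine and that ATF4 induces, had a log2 signal of 6.62 on each PCA array, against 6.6 and 6.91 in evening control cells. The PCA arrays lay between the control arrays, and the interval of the log2 difference ran from -0.456 to 0.177 (limma adjusted p = 0.478).

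The inhibitors that bind mTOR complexes differed from each other. DEPTOR, which binds mTOR in both complexes, had log2 signals of 7.21 and 7.26 in PCA cells, against 8.29 and 8.43 in evening control cells. Both groups were tight and far apart. The log2 fold change was -1.13 (SE 0.0745, 95% interval -1.3 to -0.953, limma adjusted p = 0.000665), the 28th lowest of all genes. AKT1S1, the mTORC1 subunit that AKT phosphorylates, had log2 signals of 8.83 and 8.73 in PCA cells and 8.77 and 8.93 in evening control cells. The groups overlapped, and the difference was -0.07 with an interval from -0.262 to 0.125 (limma adjusted p = 0.568).

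TSC1 and TSC2, the scaffold and the RHEB-directed GTPase-activating subunit of the TSC complex, were lower in PCA cells by less than the 1.5-fold required. TSC2 had log2 signals of 8.9 and 8.74 in PCA cells, against 9.22 and 9.26 in evening control cells, a difference of -0.42 (SE 0.082, limma adjusted p = 0.0139). TSC1 had 8.15 and 8.05 in PCA cells, against 8.41 and 8.4 in evening control cells, a difference of -0.30 (SE 0.0713, limma adjusted p = 0.0254). Neither gene's groups overlapped, and the differences amount to 1.34-fold and 1.23-fold lower. DDIT4, also called REDD1, acts on the same complex when oxygen or energy is short. It had log2 signals of 9.49 and 9.54 in PCA cells and 9.58 and 9.67 in evening control cells. The difference of -0.11 (SE 0.071) did not pass the test (limma adjusted p = 0.303), and its sign turned under 3 other scalings of the arrays, to 0.00602, 0.0267 and 0.0381.

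At the growth factor end, PIK3IP1, a membrane protein that inhibits PI3K, had log2 signals of 6.04 and 6.12 in PCA cells and 6.26 and 6.14 in evening control cells. The arrays of the groups nearly met, and the difference was -0.12 (SE 0.0967, limma adjusted p = 0.399). At the translation end, PDCD4 had log2 signals of 8.55 and 8.79 in PCA cells, against 10.17 on each evening control array. Its fold change on the log2 scale was -1.50 (SE 0.105, 95% interval -1.744 to -1.254, limma adjusted p = 0.000694), the 6th lowest of 17470 genes. In a stricter test, of a change beyond 1.5-fold and not merely from 0, PDCD4 (limma treat adjusted p = 0.0201), DEPTOR (0.0358) and SESN3 (0.0359) were among 28 genes that passed. The falls of these 3 also held when each of the 8 arrays was left out in turn.

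**Figure D2:**
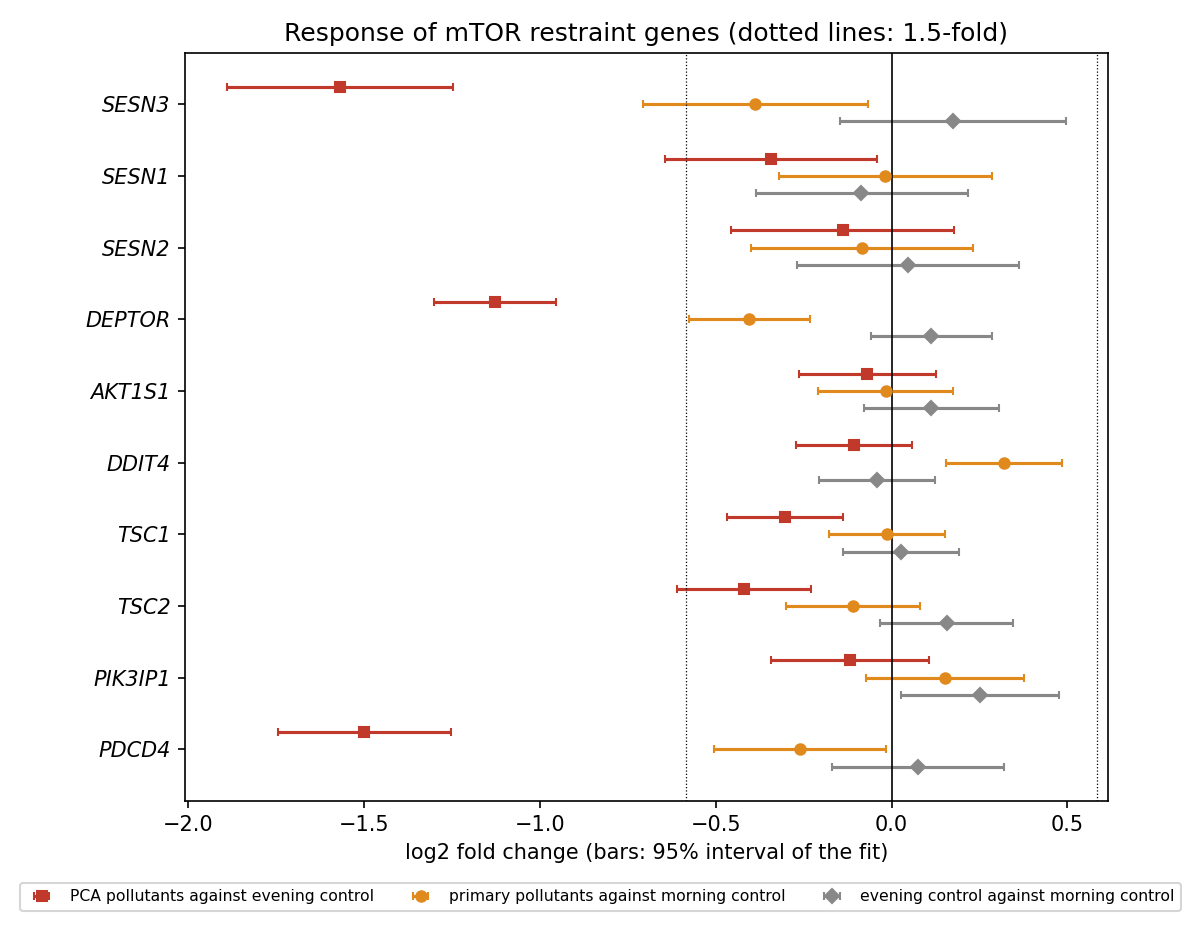
Log2 fold change of each mTOR restraint gene (horizontal axis) with its 95% interval, for PCA pollutants over evening control, for primary pollutants over morning control and for the evening control over the morning control; dotted lines mark 1.5-fold. The PCA intervals of SESN3, PDCD4 and DEPTOR lie wholly below the lower dotted line, and none of the primary intervals does.

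With primary pollutants no member changed, and neither did any of 17381 genes tested, so the background was 0%. The methods' analysis of variance, unadjusted and with the 1.5-fold limit, called 14 genes, no member among them, and none after adjustment, while 6 genes, again no member, passed in limma once its prior was trended and robust. At an unadjusted p under 0.05 there were 4 of 10 members, beside 7.96% of all genes (1384), 3 of them lower and DDIT4 higher. The median over the members was -0.051, beside -0.007 over all genes, and 8 of 10 lay below 0, of which SESN1, SESN2, TSC1 and AKT1S1 turned above it under other scalings. DEPTOR had log2 signals of 7.84 and 7.85 in primary cells, against 8.25 and 8.24 in morning control cells. Both groups were tight, and they did not overlap. The difference was -0.40 (SE 0.0744, unadjusted p = 0.000716, the 26th smallest of all genes, limma adjusted p = 0.354). It stayed between -0.41 and -0.398 when single arrays were left out.

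SESN3 had log2 signals of 7.25 and 7.61 in primary cells, against 7.74 and 7.89 in morning control cells. The primary arrays were both lower but wide apart, and the difference of -0.39 (SE 0.138, limma adjusted p = 0.503) became -0.205 without the first primary array and -0.569 without the second. PDCD4 had 9.73 and 9.94 in primary cells, against 10.09 and 10.1 in morning control cells, a difference of -0.26 (SE 0.105, limma adjusted p = 0.55) that became -0.155 and -0.369 without the same arrays. The first primary array was thus the lower of its pair for both genes. DDIT4 had log2 signals of 9.99 and 9.98 in primary cells, against 9.69 and 9.65 in morning control cells. It was the member with the highest value of the contrast, and its groups did not overlap, as was so in either direction for 38.7% of all genes. The difference was 0.32 (SE 0.0709, unadjusted p = 0.00219, limma adjusted p = 0.397), and it stayed between 0.301 and 0.339 when single arrays were left out. The other 6 members, among them both TSC genes, lay between -0.11 and 0.15, with limma adjusted p of 0.719 or more.

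Whether the members responded differently to the mixtures was tested as the PCA response less the primary response, each against its own control. PDCD4 and DEPTOR passed, 2 of 10 members beside 0.439% of 17540 genes (77), and 0.348% that were lower (61) and 0.0912% that were higher. At an unadjusted p under 0.05 there were 6 of 10 members, beside 17.6%. PDCD4 differed by -1.24 (SE 0.149, 95% interval -1.585 to -0.89, limma adjusted p = 0.0359) and DEPTOR by -0.72 (SE 0.105, 95% interval -0.967 to -0.477, limma adjusted p = 0.0392). In both genes the fall with PCA pollutants was larger than the difference with primary pollutants. SESN3 differed by -1.18 (SE 0.196, 95% interval -1.636 to -0.725), the 5th lowest of all genes, yet its adjusted p of 0.06 in limma missed the threshold. Without any one of the 8 arrays neither gene passed, with adjusted p between 0.0603 and 0.183 for PDCD4 and between 0.0723 and 0.207 for DEPTOR, although the differences themselves stayed between -1.36 and -1.11 and between -0.789 and -0.656.

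DDIT4 differed by -0.43 between the responses (SE 0.1, unadjusted p = 0.00315, limma adjusted p = 0.105), with every PCA array below and every primary array above its controls. All of the other 6 members were also below 0, between -0.33 and -0.05, and none passed, with AKT1S1 turning above 0 under 2 of the scalings. The median over the 10 members was -0.318, beside -0.013 over all genes.

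**Figure D3:**
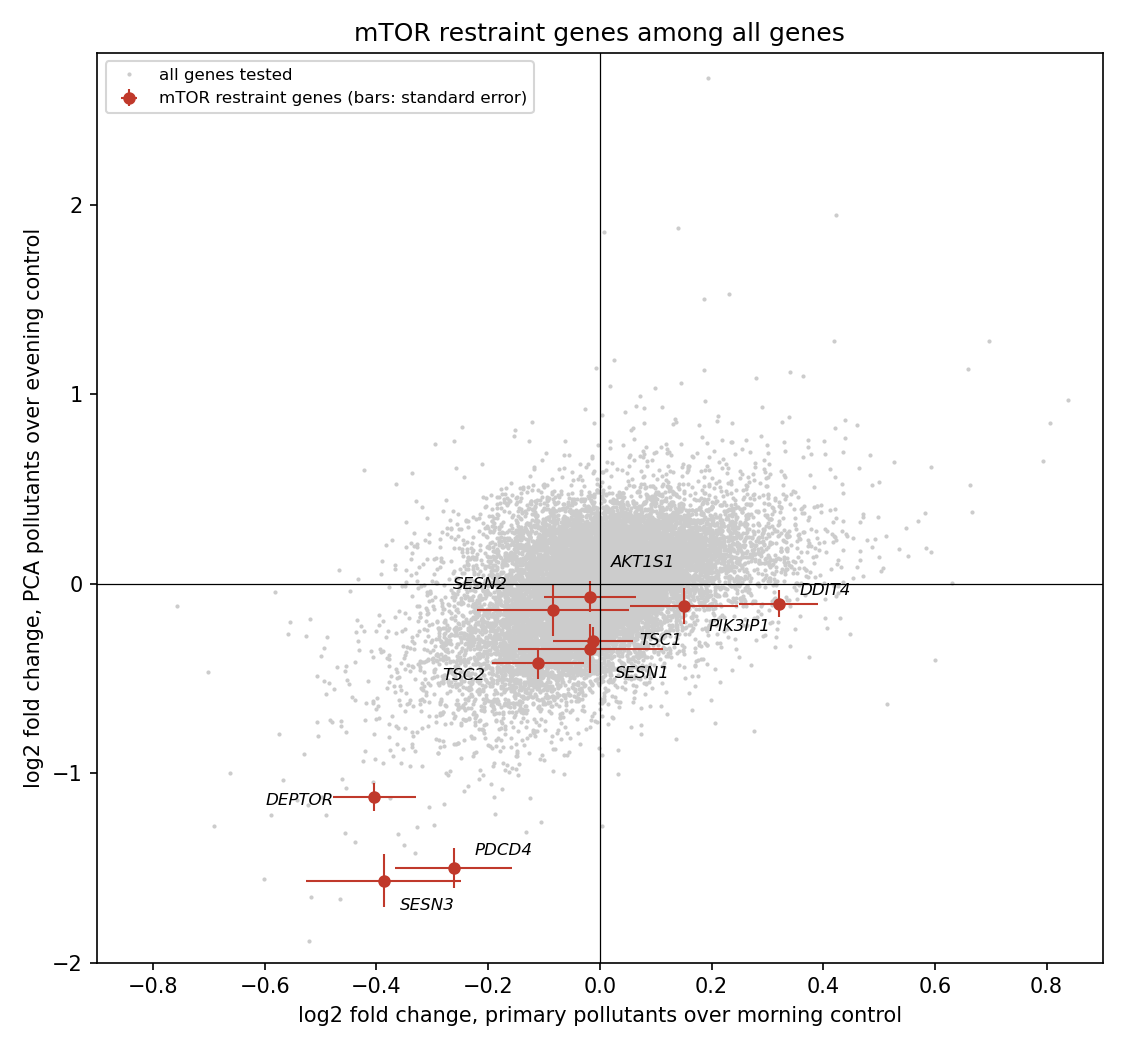
Log2 fold change with PCA pollutants over evening control (vertical axis) against that with primary pollutants over morning control (horizontal axis), one grey point per gene tested in both and red points for the mTOR restraint genes, with bars of 1 SE. SESN3, PDCD4 and DEPTOR stand at the lower left edge of all genes, and DDIT4 is set to the right, at 0.32 with primary pollutants and -0.11 with PCA pollutants.

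The controls of the evening and the morning were set against each other, since each mixture has only controls of its own time of day. None of the 17310 genes changed by this test (0%), with 880 at an unadjusted p under 0.05, 5.08%, while 2 genes passed the methods' analysis of variance before adjustment at 1.5-fold. The members lay between -0.09 for SESN1 and 0.25 for PIK3IP1 with a median of 0.093, beside 0.003 over all genes, and 8 of 10 were above 0, where SESN1 and DDIT4 joined them with arrays scaled to ribosomal protein genes. PIK3IP1 was the only member with an unadjusted p under 0.05 (0.0321, limma adjusted p = 0.999), with log2 signals of 6.26 and 6.14 in evening control cells and 5.84 and 6.06 in morning control cells. The differences of SESN3 (0.17), DEPTOR (0.11) and PDCD4 (0.07) were small beside their PCA responses. Against the morning controls, the PCA cells still differed by -1.39 for SESN3, -1.01 for DEPTOR and -1.42 for PDCD4, each past the test. The effect of the hour on exposed cells cannot be told apart from that of the mixture.

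The order of the 4 groups was the same for SESN3, DEPTOR and PDCD4, with PCA cells lowest, then primary cells, then morning control cells and evening control cells. Neither the control groups nor the primary cells and their morning control differed past the test in any of them. Likeness was measured as the root mean square difference between the centred log2 means of the 4 groups, with 0 for identical profiles, over 17539 genes, and it rests on 4 points that are shared by all genes. SESN3 was the gene most like PDCD4 of all, at 0.0818. DEPTOR lay farther from both, at 0.177 from SESN3 and 0.204 from PDCD4. Among the genes nearest to SESN3 were SFRP4, a secreted Wnt antagonist (0.0561), and TP53INP1, a stress protein of autophagy and p53 signalling (0.059), with TP53INP1 also among those nearest to PDCD4 (0.0919). SLC46A3, a lysosomal transporter (0.0108), TLR1, a receptor of innate immunity (0.0385), and STAT4, a transcription factor of cytokine signalling (0.0515), were nearest to DEPTOR. Within the members, the values at the flat end were alike too, as for SESN2 and AKT1S1 (0.048) and for SESN1 and TSC1 (0.0667).

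Most of the other pathway genes did not pass. Of 141 further genes listed for mTOR, its inputs, its outputs and the factors that induce the restraints, 126 could be read and tested. With PCA pollutants 1 rose, 8 fell and 117 did not pass, beside 3.53% of all genes called, 2.66% lower and 0.876% higher. The share that fell was above that of all genes, but the lists were chosen with earlier results known. None of the 9 mTOR complex subunits passed, with a median of -0.069. MTOR itself, the kinase, was lowest at -0.31 (SE 0.0744, limma adjusted p = 0.0273), under the 1.5-fold limit. Its log2 signals were 8.62 and 8.5 in PCA cells and 8.83 and 8.9 in evening control cells. On the amino acid side, where sestrins act through the GATOR complexes, 1 of 24 fell (median -0.184). This was FNIP1, the partner of folliculin that acts on the Rag GTPases, with log2 signals of 8.38 and 8.09 in PCA cells against 9.17 and 9.06 in evening control cells (difference -0.88, SE 0.122, limma adjusted p = 0.00463). None of 15 genes of the PI3K and AKT arm (median -0.091) and none of 11 of the LKB1 and AMPK arm (median -0.16) passed.

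Among 19 mTORC1 outputs and initiation factors, 1 fell and the median was -0.129. EIF4B, the helper of the eIF4A helicase and a substrate of S6 kinase, had log2 signals of 11.89 and 11.98 in PCA cells against 12.54 and 12.51 in evening control cells. The difference of -0.59 (SE 0.069, limma adjusted p = 0.00271) sat at the 1.5-fold limit. It was -0.541 without the first PCA array and -0.575 without the first evening control array, under the limit. Averaged over the single-symbol probe sets of the gene, the difference was -0.618, past the limit (limma adjusted p = 0.00453). EIF4A2, a helicase that PDCD4 binds, differed by -0.44, under the limit too (SE 0.0694, limma adjusted p = 0.00711). None of the 6 genes listed for the degradation of DEPTOR and PDCD4, 5 of the ubiquitin ligase and the kinase gene CSNK1A1, passed (median -0.168). The lowest was RBX1, the RING subunit of the ligase, at -0.37 (limma adjusted p = 0.0273), under the 1.5-fold limit.

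**Figure D4:**
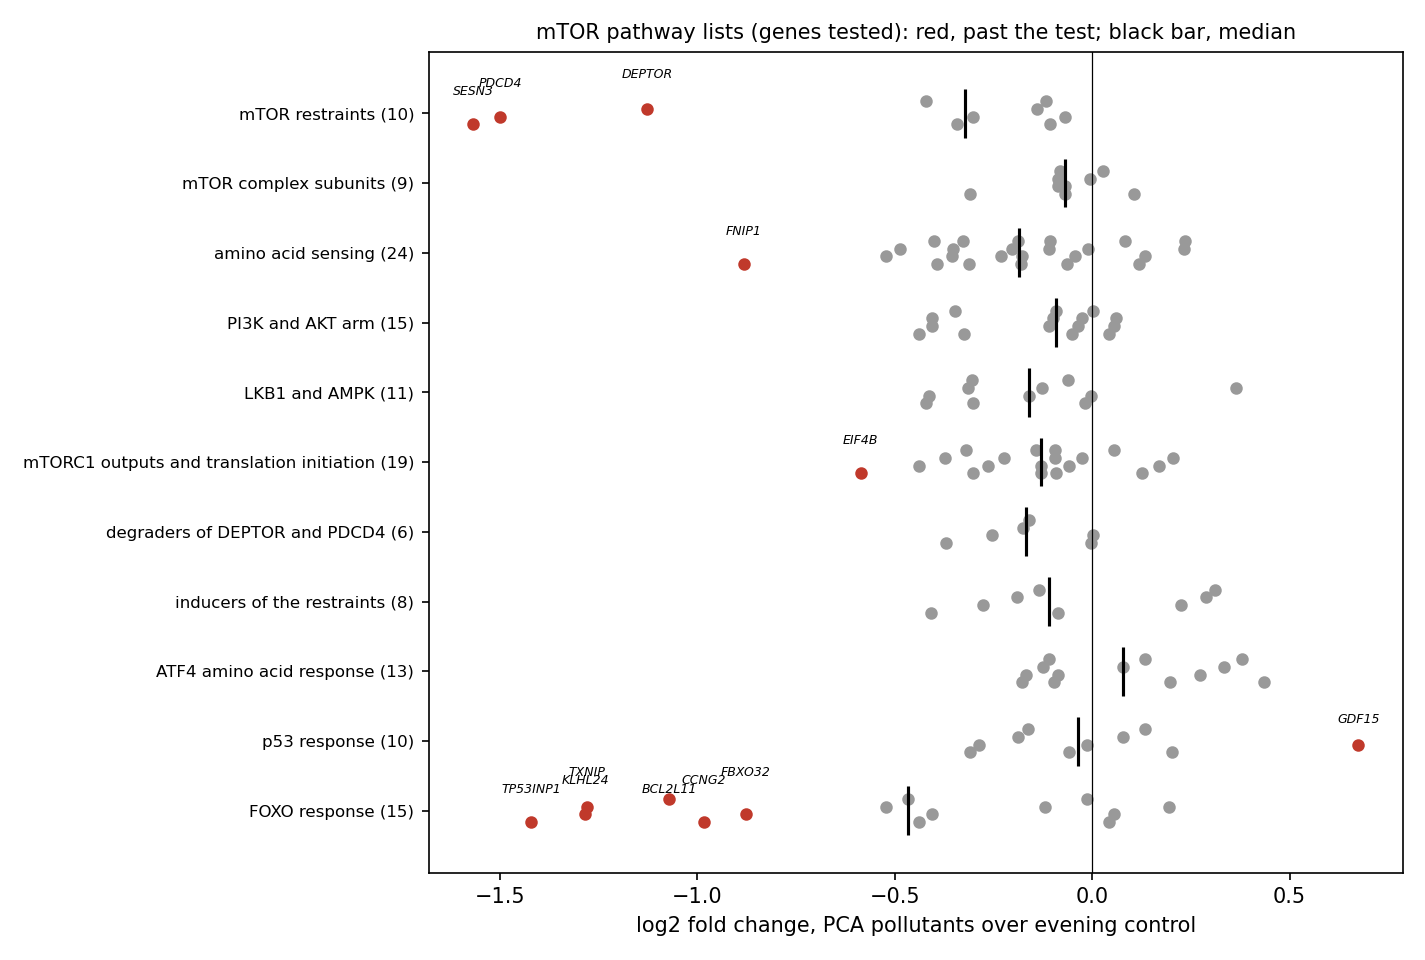
Log2 fold change with PCA pollutants over evening control (horizontal axis) for each gene tested in the mTOR restraints and in 10 further lists, one row per list with its number of genes; red points passed the test, grey points did not, and black bars are medians. The FOXO response genes have the lowest median, -0.466, and the ATF4 response genes are the only list with a median above 0.

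Of the genes induced by the same factors as the restraints, those of the FOXO response had the most calls. This list, like the others, was drawn up with earlier results of these data known, so its share of calls is a description and not a test. With PCA pollutants 6 of 15 fell, beside 2.66% of all genes, and none rose, with a median of -0.466, beside -0.002, and with primary pollutants none passed. These are genes that FOXO factors switch on along with SESN3, when growth factor signalling is low, and FOXO1 and FOXO3 themselves, at 0.22 and 0.31 with PCA pollutants, did not pass. TP53INP1 had log2 signals of 7.36 and 7.46 in PCA cells against 8.8 and 8.87 in evening control cells (difference -1.42, SE 0.0724, limma adjusted p = 0.000633). KLHL24, a ubiquitin ligase adaptor, had 7.14 and 7.05 in PCA cells against 8.36 and 8.4 in evening control cells (-1.28, adjusted p = 0.000665). BCL2L11, the death-promoting protein BIM, had 7.51 and 7.44 in PCA cells against 8.52 and 8.57 in evening control cells (-1.07, adjusted p = 0.000935), and TXNIP, which restrains glucose uptake and binds thioredoxin, had 6.32 and 6.63 in PCA cells against 7.64 and 7.87 in evening control cells (-1.28, adjusted p = 0.00234). All PCA values of these 4 genes lay below all control values. The other 2 to fall were the cyclin gene CCNG2 (-0.98) and the muscle ubiquitin ligase gene FBXO32 (-0.88), whose PCA arrays read 5.67 and 6.42. FBXO32 was -0.499 without the first PCA array, and it lost its call also without either array of the evening control (adjusted p of 0.104 and 0.118) or of the morning control (0.0515). In the difference between the responses TP53INP1 (-1.09), KLHL24 (-0.96), BCL2L11 (-0.83) and the transcriptional repressor BCL6 (-0.74) fell, 4 of 15 beside 0.348% of all genes, with limma adjusted p between 0.023 and 0.0379, and none of them passed when any one of the 8 arrays was left out. Like DDIT4, BCL6, chosen after its values were seen, differed in sign between the mixtures, at -0.52 with PCA pollutants and 0.22 with primary pollutants, both under 1.5-fold.

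The lists of the other inducers held 1 call between them. TP53INP1, described above as a protein of p53 signalling, was counted in the FOXO list and not in the p53 list. The calls of each list thus depend on where such genes were placed. Of 13 genes that ATF4 induces along with SESN2 and DDIT4 none passed with PCA pollutants, with a median of 0.079, and ATF4 itself was at -0.28. Of 10 genes that p53 induces along with SESN1 and SESN2, 1 rose and the median was -0.036. GDF15, a secreted stress cytokine, had log2 signals of 9.14 and 9.15 in PCA cells against 8.51 and 8.44 in evening control cells (difference 0.67, SE 0.133, limma adjusted p = 0.0145). Its call was lost when any one of the 4 arrays compared was left out, with adjusted p between 0.0532 and 0.081, and against the morning controls, where GDF15 read 8.58 and 9.01, the difference was 0.351. The 8 inducers that could be read, FOXO1, FOXO3 and ATF4 among them, gave no change and a median of -0.109. With primary pollutants no gene of any list passed in the main fit, and TXNIP was the lowest of them all. It had log2 signals of 6.59 and 6.86 in primary cells against 7.43 and 7.39 in morning control cells (difference -0.69, unadjusted p = 0.00115 in limma, limma adjusted p = 0.355). The difference was past 1.5-fold, TXNIP was called in 1 of 23 alternative fits, and the paper lists it as lower with primary pollutants.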

How the data were processed

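The 8 arrays, of the type Human Gene 1.0 ST, were placed in 4 groups of 2 by the sample labels. The authors had applied robust multichip average before deposit, so the deposited unit is a normalized log2 signal, used here without further scaling, and the submitters' processing notes name Partek 6.4. Of 28869 probe sets, 19310 carry 1 symbol in the platform annotation, 1752 several and 7807 none. A gene was read from its single-symbol probe set of highest mean signal, and listed genes without one were not analysed here.

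Probe sets whose signal reached 30 on at least 1 array compared were tested. One model of the 4 group means, over the 8 arrays together, was made with lmFit and eBayes (limma 3.58.1, R 4.3.3), with 4 residual degrees of freedom. Contrasts were PCA less evening control, primary less morning control, their difference, and evening less morning control, with p-values adjusted by Benjamini-Hochberg over all probe sets of a contrast. The median SE was 0.091 for the PCA contrast, and 2 arrays a group limit the precision. The fit was run on simulated data with known changes. A set share of recovered changes was required in each contrast except the difference between the responses.

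Named genes were all members, ACTB, the called genes of a pathway list (up to 4 by smallest p, and all of them where few), and the 3 most like profiles of each called member. One gene that this rule names is not reported here. Values of CDH1, MTOR, EIF4A2, RBX1, FOXO1, FOXO3, ATF4, BCL6, CCNG2 and FBXO32 fall outside the rule and were chosen after they were seen. The members and lists were chosen with earlier results of these data known. Promoters came from RefSeq on GRCh38.p14, and no array coordinates were used. Alternatives covered the filter, scaling, prior, test, thresholds, control arrays, a replicate block and each array left out. Replicate numbers did not pair the samples.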

Additional observations from a re-analysis of the deposited data

Results flagged for a closer look

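The difference between the responses to the PCA and the primary pollutants passed the test for PDCD4, at -1.24 on the log2 scale (limma adjusted p = 0.0359), and for DEPTOR, at -0.72 (limma adjusted p = 0.0392), and both calls were lost without any single array. DDIT4 drew attention because each PCA array lay below its evening controls while each primary array lay above its morning controls. Arrays did not overlap, in one direction or the other, for 68.3% of all genes with PCA pollutants and 38.7% with primary pollutants. The PCA difference of DDIT4, -0.11, turned to small values above 0 under other scalings. The difference between its responses was -0.43, with a limma adjusted p of 0.105, so that this difference did not pass its test.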

How the results depend on the processing

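The falls of SESN3, DEPTOR and PDCD4 with PCA pollutants held in all 23 alternative fits, between -1.69 and -1.39 for SESN3, -1.19 and -0.982 for DEPTOR and -1.62 and -1.35 for PDCD4. With no fold limit 5 members passed, TSC1 and TSC2 being the added ones. The number of all genes called also rose several-fold without the limit, from 617 of 17470 (3.53%) with it. The 2 added calls thus do not by themselves set TSC1 and TSC2 apart from other genes. In the difference between the responses 2 members passed, but 0 did with no filter on signal, with the methods' analysis of variance after adjustment, with limma's treat test at 1.5-fold, and without any one array (0 to 0), and 1 did with arrays scaled to ribosomal protein genes, where DEPTOR was lost (adjusted p = 0.0709). SESN3 passed there with a signal of at least 100 (adjusted p = 0.0212) and with a trended and robust prior (0.00406). With the replicate number as a block, 0 members passed in the difference (adjusted p of 0.0915 for DEPTOR and 0.0519 for PDCD4), and same-numbered arrays deviated together with correlations of -0.124 to 0.055, so the number does not pair them. The primary and the control contrasts gave 0 members in every fit.

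Of 886 member values under alternatives 41 changed sign, none past the test and none over 0.134 in size. Scaling to ribosomal protein genes moved the median of all genes to 0.144 with PCA pollutants, 0.089 with primary pollutants and 0.09 between controls. With PCA pollutants, DDIT4 turned to 0.00602 after quantile normalization, 0.0267 after cyclic loess and 0.0381 with ribosomal scaling, and AKT1S1 to 0.0392, 0.0361 and 0.0759. SESN2 (0.00532), PIK3IP1 (0.0269) and ACTB (0.115) turned with ribosomal scaling, and ACTB also with cyclic loess (0.064). Against the morning controls PIK3IP1 (0.134), AKT1S1 (0.044) and ACTB (0.0375) turned. With primary pollutants TSC1 and AKT1S1 turned to 0.0103 and 0.00331 after quantile normalization and to 0.00775 and 0.00553 after cyclic loess, and ribosomal scaling turned SESN1 (0.0788), SESN2 (0.0122), TSC1 (0.084), AKT1S1 (0.0789) and EIF4B (0.0701). Against the evening controls SESN1 (0.0682), PIK3IP1 (-0.101) and FBXO32 (-0.0766) turned. In the difference AKT1S1 turned to 0.0359 and 0.0306 under the first scalings, and between controls ribosomal scaling turned SESN1 (0.000694) and DDIT4 (0.0442). The cause of these changes of sign was not tested. The calls lost for EIF4B were those with quantile normalization (-0.54), cyclic loess (-0.471), ribosomal scaling (-0.442) and the morning controls (-0.564).

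Leaving out 1 array at a time also turned small values, given here as the lowest and highest. With PCA pollutants, ACTB ran from -0.0759 to 0.0157, SESN2 ran from -0.295 to 0.0164 and AKT1S1 ran from -0.148 to 0.0101. With primary pollutants, SESN1 ran from -0.109 to 0.0735, SESN2 ran from -0.234 to 0.0656, TSC1 ran from -0.0373 to 0.0127, AKT1S1 ran from -0.0541 to 0.0192, FBXO32 ran from -0.102 to 0.166 and GDF15 ran from -0.0491 to 0.381. In the difference, AKT1S1 ran from -0.13 to 0.0276, SESN2 ran from -0.211 to 0.101 and ACTB ran from -0.0021 to 0.23. Between the controls, DDIT4 ran from -0.0909 to 0.00659, SESN2 ran from -0.108 to 0.203, BCL6 ran from -0.00886 to 0.0393, TLR1 ran from -0.0124 to 0.221 and STAT4 ran from -0.082 to 0.242.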
